A study of Arabidopsis thaliana with 6 samples.

Results

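Detached mature leaves of GRF9-IOE plants were profiled after 6 h with estradiol (EST) and after 6 h without it, on 1 Affymetrix ATH1 array each, and the difference between these arrays is described here gene by gene. GRF9-IOE is an Arabidopsis thaliana line that carries the coding region of GRF9 behind an EST-inducible promoter, so that the hormone switches the transgene on. The members are the nuclear genes with a log2 signal of at least 6 on 1 of the 2 leaf arrays. They number 5297 of the 13217 nuclear genes that have a probe set of their own, and the 2 leaf arrays are 2 of 6 arrays in the series. The EST leaves came from soil-grown plants of 40 days under 12 h of light and received 10 µM EST. The mock leaves came from plants of the same line and age, were taken at the same time and received 0.1% ethanol. Age and ethanol are as the labels give them, and the study's methods state younger plants and more ethanol. EST seedlings and mock seedlings of 2 weeks, grown on MS plates under 16 h of light, were taken at 3 h and at 4 h, with 1 array for each. All 6 arrays are of the GRF9-IOE line, so no array shows EST without the transgene, and the induced gene and the inducer cannot be told apart. GRF9 itself has no value among the probe sets paired with 1 gene. The study states that GRF9 is not represented on ATH1, yet it also counts GRF9 among the genes raised on these arrays.

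GRF9 belongs to the GROWTH-REGULATING FACTORs, plant transcription factors with a QLQ and a WRC domain that act in young, dividing organs, where miR396 restrains several of them. In a mature leaf cell division has largely ended, and the bulk of the transcriptome serves photosynthesis, carbon metabolism and defence. Detachment is itself a wound, and a cut leaf no longer exports sugar, but both leaf arrays share that treatment.

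The values are log2 signals per probe set, normalized by the authors with GCRMA, and a difference of 1 is 2-fold. The 2 leaf arrays correlated at 0.993 over all 22810 probe sets, with medians of 5.17 in EST leaves and 5.16 in mock leaves. As a check of the tissue label, the root β-glucosidase PYK10 read 2.17 on both leaf arrays on the log2 scale, against 12.06 to 12.27 on the 4 seedling arrays. EXPA7, a root hair expansin, stood at 2.25 or lower on all 6 arrays and so does not separate the tissues. FAMA, a guard cell regulator, had 5.22 in EST leaves and 5.21 in mock leaves. The 8 mesophyll markers, the 6 of epidermis and trichomes, the 6 of phloem and vasculature and the 4 of dividing cells have no probe set of their own in the annotation used. GAPC2, a housekeeping enzyme of glycolysis, had a log2 signal of 12.88 in EST leaves and 12.86 in mock leaves. In whole leaves, fewer cells of a type and less RNA per cell cannot be told apart.

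With 1 array for each treatment, no difference in leaves can be tested against replicates. The spread of the difference among genes of like signal served as the yardstick instead, as a robust SD in 20 bins of equal size. It was 0.68 on the log2 scale in the dimmest bin, 0.39 in the next and between 0.24 and 0.38 in the other 18. A gene with a mean below 6 is counted only if its arrays differ enough for 1 to reach 6. The filter itself thus widens the spread of the dimmest bin. The corresponding spread of mock seedlings at 4 h minus mock seedlings at 3 h was 0.12 to 0.33. Over all 5297 genes the median leaf difference was 0.01 and the robust spread 0.32. Leaf arrays thus differed more widely from each other than these mock seedling arrays did, at every signal level above a mean of 6: in the brightest band, with a mean signal of at least 10, the spread was 0.27 in leaves and 0.16 between mock seedlings.

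In EST leaves 57 of the 5297 genes exceeded mock leaves by 2-fold or more, which is 1.08%, and 54 lay below them by as much, which is 1.02%. The threshold itself chose these genes, so the counts are descriptions. Among the genes with a mean signal below 6, 8.33% were higher and 9.31% lower, but from 8 up to 10 these shares were 0.593% and 0.162%. The filter itself raises the shares below 6, because such a gene is counted only if its 2 arrays differ enough for 1 to reach 6. They therefore do not measure how often dim genes differ. Of the 57 higher genes 37 lay beyond 3 spreads of their bin, and of the 54 lower genes 33 did. These counts were partly fixed in advance, because in bins with a narrow spread, such as 0.24, any 2-fold difference exceeds 3 spreads. Of all 5297 genes, 1.09% lay more than 3 spreads above 0 and 1.0% more than 3 spreads below. Signal at 6 was reached on the EST array alone by 24 of the 57, and on the mock array alone by 26 of the 54. The 57 had a median log2 signal of 7.80 in EST leaves and 6.52 in mock leaves, and the 54 had 6.06 in EST leaves and 7.38 in mock leaves. The difference was at least 2 on the log2 scale for 2 of the higher genes and 4 of the lower ones.

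**Figure D1:**
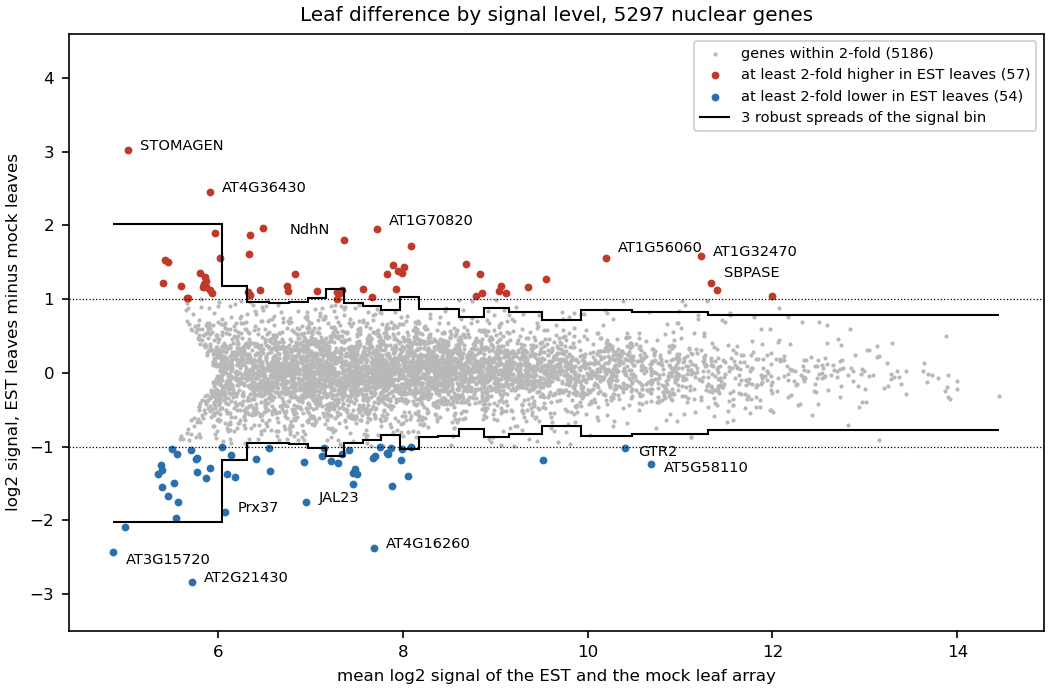
Each point is 1 of 5297 nuclear genes, with the mean log2 signal of the EST and the mock leaf array on the x axis and EST leaves minus mock leaves on the y axis. Dotted lines mark 2-fold and the stepped lines 3 robust spreads of each of 20 signal bins, which are widest in the dimmest bin.

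The gene with the largest difference upward was STOMAGEN, which encodes a secreted peptide made in the mesophyll that raises the number of stomata in young leaves. Its log2 signal was 6.53 in EST leaves and 3.51 in mock leaves, a difference of 3.02 or 8.12-fold, which is 4.47 spreads of its bin. In seedlings EST minus mock was -0.31 at 3 h and 0.03 at 4 h. STOMAGEN is a dim gene in the leaf, where the mean of both arrays lay 3.96 below that of the 4 seedling arrays on the log2 scale. The other gene at least 4-fold higher was AT4G36430, with log2 signals of 7.14 in EST leaves and 4.69 in mock leaves, and its differences in seedlings were 0.82 and 0.68.

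Of the 57 higher genes, 14 have a symbol other than their locus code, and 8 of these encode proteins of the chloroplast: NdhN, NdhL, Cpn60beta4, LHCB4.3, CaS, SBPASE, LrgB and CHLI2. The share of chloroplast proteins among all 758 counted genes with a symbol was not determined, so the 8 are a description. NdhN and NdhL are subunits of the chloroplast NADH dehydrogenase-like complex, which carries electrons in cycles around photosystem I. NdhN had a log2 signal of 8.27 in EST leaves and 6.46 in mock leaves, a difference of 1.80 and 4.77 spreads. NdhL had 8.67 in EST leaves and 7.31 in mock leaves, a difference of 1.35 and 3.92 spreads. Cpn60beta4 is a chaperonin subunit needed to fold a component of the same complex, and it had 6.48 in EST leaves and 5.35 in mock leaves. Its difference of 1.13 was only 1.67 spreads of its dim bin.

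LHCB4.3 encodes an isoform of CP29, a minor antenna protein of photosystem II. Its log2 signal was 7.01 in EST leaves and 5.89 in mock leaves, while the brighter isoforms LHCB4.1 and LHCB4.2 differed by 0.36 and 0.37. CaS, a thylakoid protein involved in calcium signalling and stomatal closure, had 9.65 in EST leaves and 8.48 in mock leaves. CHLI2, a subunit of magnesium chelatase at the entry to chlorophyll synthesis, was just inside the threshold with 7.80 in EST leaves and 6.79 in mock leaves.

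In carbon metabolism the brightest named gene past 2-fold was SBPASE, the sedoheptulose-bisphosphatase that regenerates the CO2 acceptor in the Calvin cycle. It had a log2 signal of 11.95 in EST leaves and 10.73 in mock leaves, a difference of 1.22 and 4.68 spreads. LrgB, the plastid carrier that exports glycolate and takes up glycerate in photorespiration, had 8.63 in EST leaves and 7.17 in mock leaves. Its difference of 1.46 was 5.17 spreads. The other enzymes of this group stayed within 2-fold: rubisco activase RCA differed by 0.50, phosphoribulokinase PRK by 0.41 and peroxisomal hydroxypyruvate reductase HPR by 0.23. All 5 genes of this group, which was put together after the values had been seen, lay above 0 in leaves, against 52% of all genes.

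Most counted genes of the photosynthetic machinery that did not reach 2-fold also lay above 0. Coverage was partial: of 46 photosystem and light-harvesting genes found in the annotation, 7 had a probe set of their own. A list of 30 counted genes for subunits of the apparatus and the factors that assemble it, chosen after the values had been seen, had a median difference of 0.37, against 0.01 over all genes. Of the 30, 26 lay above 0, or 86.7% against 52% of all genes, with 4 past 2-fold upward and 0 downward. At least 1.5-fold higher were 11 of the 30, against 5.61% of all genes. Just below the threshold stood CCB3, which helps to attach heme in the cytochrome b6f complex, with 8.35 in EST leaves and 7.36 in mock leaves. CRR42, an assembly factor of the NDH complex, differed by 0.91, and PSB27, which acts in the assembly and repair of photosystem II, by 0.89. HCF101, an iron-sulfur scaffold for photosystem I, differed by 0.71 and PAM68, an assembly factor of photosystem II, by 0.64. The 4 genes below 0 were ATPC2 at -0.89, CRR41 at -0.50, LPA1 at -0.25 and the photosystem I subunit PSAE-1 at -0.01. ATPC2, a minor isoform of the ATP synthase γ subunit, was dim, with 5.15 in EST leaves and 6.04 in mock leaves, and its brighter isoform ATPC1 differed by 0.20.

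Tetrapyrrole synthesis supplies chlorophyll and heme. Of 9 counted genes, likewise chosen after the values had been seen, 7 lay above 0, or 77.8% against 52% of all genes, with a median of 0.17 and 1 at least 2-fold higher. After CHLI2 the largest differences were those of CHLM, the methyltransferase that follows magnesium chelatase, at 0.78, and of HEME1 at 0.54. The protochlorophyllide reductase PORB differed by 0.39, and GSA1, HEME2 and HEMA2 stayed between -0.02 and 0.03.

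In seedlings these photosynthesis genes lay mostly below 0 at 3 h and on both sides of it at 4 h. Of the 30 genes of the apparatus 9 lay above 0 at 3 h, or 30% against 52.8% of all genes, and 16 at 4 h, or 53.3% against 57.8%. Of the 5 genes of carbon fixation 0 lay above 0 at 3 h and 3 at 4 h, and of the 9 genes of tetrapyrrole synthesis 2 and 8. The 30 genes of the apparatus had differences between -0.49 and 0.36 across both times, so that 0 reached 1.5-fold. SBPASE differed by -0.06 and -0.08 in seedlings and NdhN by -0.33 and -0.06. The plastid genome was left out of the counts. Its 60 probe sets with a log2 signal of at least 6 had a median difference of -0.73, opposite in sign to the medians of these nuclear lists. At least 2-fold lower in EST leaves were 23 of them, or 38.3%, and 1 was at least 2-fold higher, or 1.67%. Among all 5297 nuclear genes counted these shares were 1.02% and 1.08%. Whether the plastid signals and the nuclear ones are linked was not tested.

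**Figure D2:**
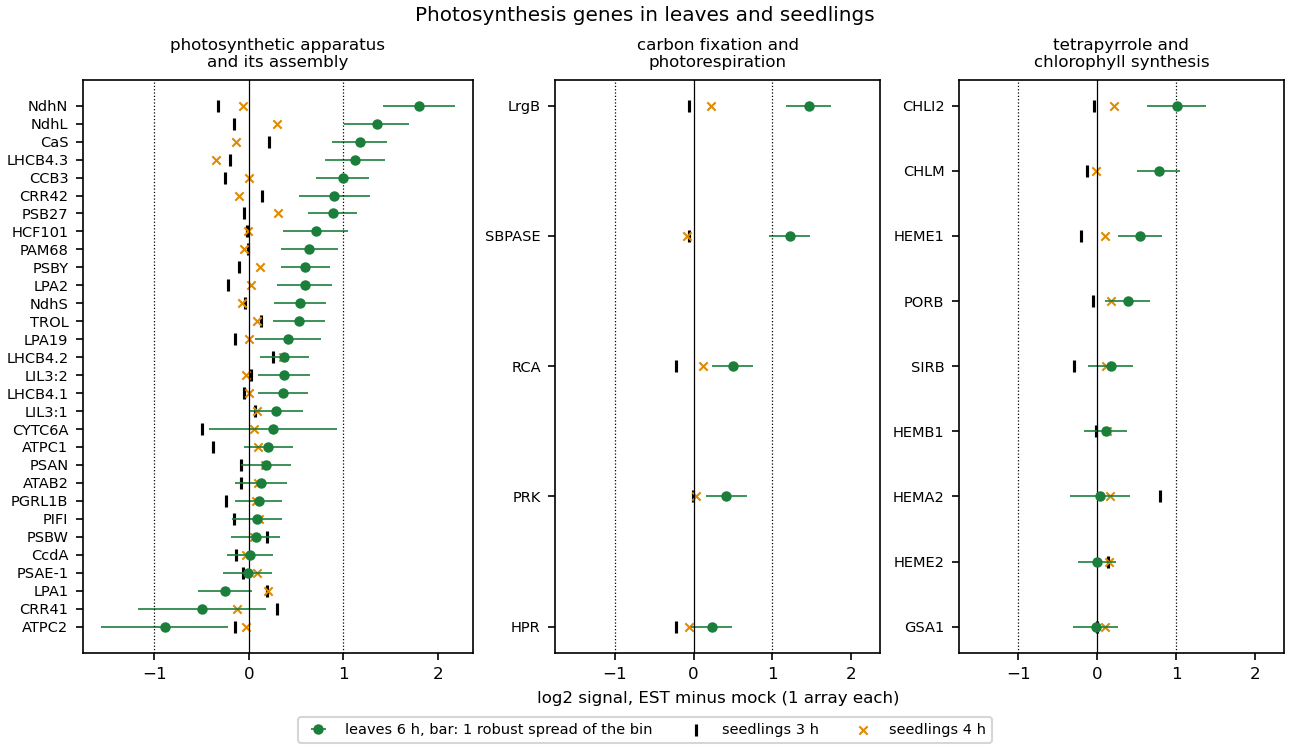
EST minus mock log2 signal of the photosynthesis genes on the x axis, for leaves at 6 h (circles, with a bar of 1 robust spread of the gene's signal bin), seedlings at 3 h (ticks) and seedlings at 4 h (crosses), 1 array for each treatment. Of the 30 apparatus genes, 26 lie above 0 in leaves, 9 in seedlings at 3 h and 16 in seedlings at 4 h.

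The remaining named genes on the higher side belonged to several functions. PDF1.2b, a plant defensin that jasmonate and ethylene induce, had a log2 signal of 6.48 in EST leaves and 5.13 in mock leaves. Its probe set is shared with near-identical sequences, its difference was 2.00 spreads, and its mean in leaves was 5.54 below that in seedlings. BGLU25, a β-glucosidase, had 10.19 in EST leaves and 8.92 in mock leaves, a difference of 1.27 and 5.28 spreads. EXPA4, an expansin that loosens cell walls, had 7.86 and 6.78, and GSTU18, a tau glutathione transferase, had 6.87 and 5.82. iqd21, a calmodulin-binding IQ-domain protein, was at the edge with a difference of 1.01 and fewer than 2 spreads.

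The higher genes known by locus code alone included several that stood out more clearly against the yardstick than the named ones. AT1G70820 had a log2 signal of 8.69 in EST leaves and 6.75 in mock leaves, a difference of 6.40 spreads, the most of the 57. AT3G06890 had 7.48 in EST leaves and 5.51 in mock leaves, at 6.16 spreads, and AT2G32190 had 7.29 in EST leaves and 5.42 in mock leaves, at 5.86 spreads. The annotation pairs AT2G32190 with another probe set too, shared with AT2G32210, so it is uncertain whether this value is that of the gene. The brightest of the 25 with the largest differences were AT1G32470, with 12.02 in EST leaves and 10.43 in mock leaves, and AT1G56060, with 10.97 and 9.42. Both lay more than 5 spreads out, at 5.79 and 5.44. AT4G19430 differed by 1.90 in leaves but by -1.77 in seedlings at 3 h and -0.31 at 4 h. The others of the 25, from AT1G64680 at 1.72 down to AT4G34950 at 1.29, were AT2G36145, AT5G42070, AT1G62770, AT1G74070, AT1G14345, AT1G74010, AT4G29020, AT1G09750, AT2G03420 and AT4G39670.

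**Figure D3:**
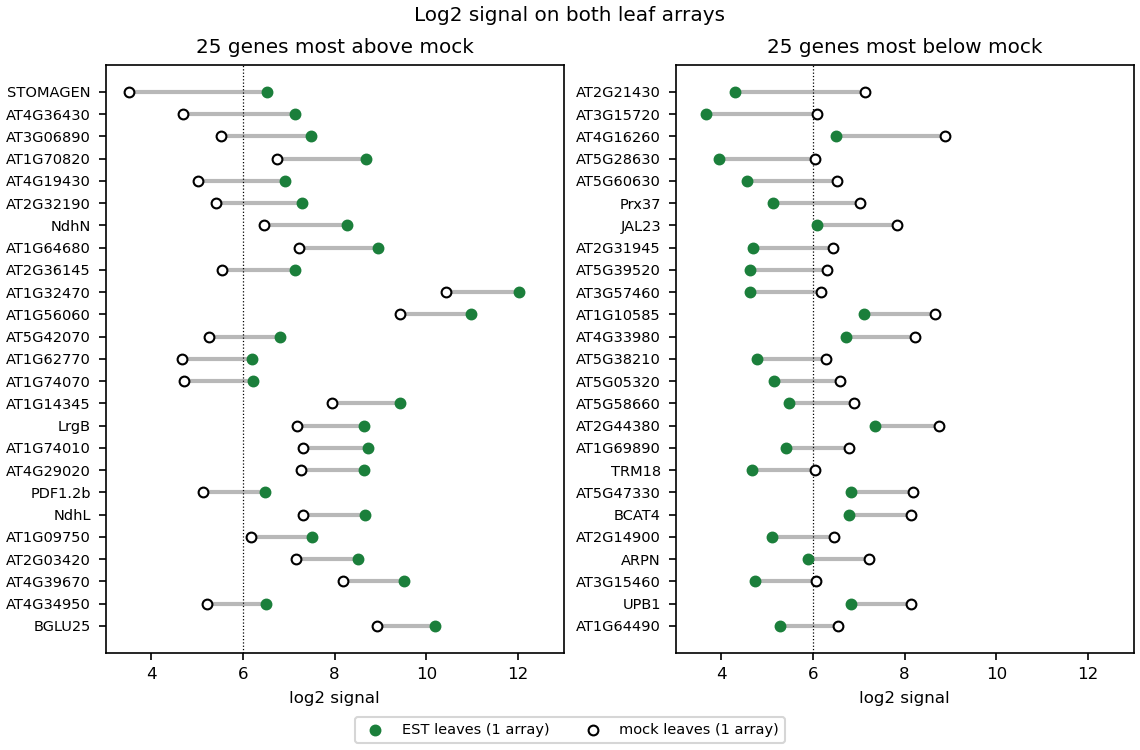
Log2 signal on the EST leaf array (filled) and the mock leaf array (open) for the 25 genes with the largest difference in each direction, 1 array each, and the dotted line at a signal of 6. STOMAGEN stands at 6.53 in EST leaves and 3.51 in mock leaves, and AT4G16260 at 6.50 and 8.87.

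On the lower side, 9 of the 54 genes have a symbol, and their functions are mixed. The largest difference of a named gene was that of Prx37, a secreted class III peroxidase, an enzyme family that cross-links cell walls. Its log2 signal was 5.14 in EST leaves and 7.03 in mock leaves, a difference of -1.89 or 3.71-fold, at 4.81 spreads. UPB1, the bHLH factor UPBEAT1 that represses peroxidase genes in the root, was lower as well, with 6.83 in EST leaves and 8.13 in mock leaves. JAL23, a jacalin-related lectin, had 6.08 in EST leaves and 7.83 in mock leaves, at 5.47 spreads.

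Glucosinolates are the sulfur-containing defence compounds of the cabbage family. BCAT4, the aminotransferase that starts the chain elongation of methionine for aliphatic glucosinolates, had a log2 signal of 6.78 in EST leaves and 8.14 in mock leaves. GTR2, a plasma membrane transporter that loads glucosinolates into the phloem, had 9.90 in EST leaves and 10.92 in mock leaves. Their differences of -1.36 and -1.02 were 4.30 and 3.57 spreads. UGT74B1, which glucosylates the core structure, differed by -0.65, GSTU20, a glutathione transferase linked to the pathway, by -0.63, and GTR1, the partner of GTR2, by -0.19. With the regulators MYC3 at -0.05 and MYC4 at -0.0006, the 7 counted genes of this group, chosen after the values had been seen, had a median of -0.63, with 2 at least 2-fold lower and 0 above 0. Of all genes 1.02% were at least 2-fold lower and 52% above 0, and the choice makes the counts of this group a description. STR18, a sulfurtransferase, had 6.56 in EST leaves and 7.68 in mock leaves.

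The other named genes among the 54 were ARPN, TRM18 and cwINV6. ARPN, the small copper protein plantacyanin, had a log2 signal of 5.90 in EST leaves and 7.23 in mock leaves. TRM18, a TON1 recruiting motif protein of a family that organizes microtubules, had 4.67 and 6.04, but its difference was only 2.03 spreads, and the 5 counted TRM genes had a median of 0.08. cwINV6, named a cell wall invertase but annotated as a fructan exohydrolase, had 7.48 in EST leaves and 8.51 in mock leaves.

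Among the lower genes known by locus code, AT2G21430 had the largest difference, with a log2 signal of 4.30 in EST leaves and 7.13 in mock leaves, or 7.14-fold. AT3G15720 followed with 3.65 in EST leaves and 6.08 in mock leaves, a signal close to the limit for counting. AT4G16260 stood farthest from its bin of all 5297 genes, at 7.79 spreads, with 6.50 in EST leaves and 8.87 in mock leaves. Its seedling differences of 0.35 and 0.93 had the opposite sign. The brightest of the 54 was AT5G58110, with 10.07 in EST leaves and 11.31 in mock leaves. The others of the 25 lowest, from AT5G28630 at -2.10 to AT1G64490 at -1.28, were AT5G60630, AT2G31945, AT5G39520, AT3G57460, AT1G10585, AT4G33980, AT5G38210, AT5G05320, AT5G58660, AT2G44380, AT1G69890, AT5G47330, AT2G14900 and AT3G15460.

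The genes nearest to the threshold show how finely it cuts. Just inside it on the higher side were CHLI2, iqd21, AT4G18810 and AT2G04039, with differences of 1.01 to 1.03. Just outside stood AT2G20830, CCB3, AT5G52420 and AT5G55620, at 0.985 to 0.997. On the lower side AT1G44810, AT2G44525, AT5G52070 and AT2G33170 were inside at -1.001 to -1.014, and AT1G72940, AT5G28040, AT1G20890 and AT3G19030 outside at -0.999 to -0.994.

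Hormone genes were few among those counted, and most lay below 0. The gibberellin receptors GID1A, GID1B and GID1C differed by -0.36, -0.59 and -0.90, and GID1C, with 6.29 in EST leaves and 7.20 in mock leaves, was 2.85 spreads below. The auxin-conjugating enzyme GH3.3 differed by -0.91, the auxin-induced homeodomain factor HAT2 by -0.84 and the repressor IAA18 by -0.02. In seedlings GH3.3 differed by 0.74 at 3 h and -0.28 at 4 h, and HAT2 by 0.73 and 0.01. Mock seedlings at 4 h minus 3 h differed by 0.89 for GH3.3 and 0.46 for HAT2. SAMBA, a regulator of the anaphase-promoting complex that limits organ size, differed by -0.88, and ARL, an organ size gene, by -0.46. 0 of these 8 genes reached 2-fold. The lists for salicylic acid defence, cytokinin and flavonoids had 1, 2 and 6 genes with a probe set of their own, all below the signal limit on both leaf arrays, and that for phosphate starvation had 0.

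Other gene groups were centred near 0 in leaves. The 9 counted genes of detoxification had a median of 0.08, with GSTU18 as the 1 at least 2-fold higher, and the 14 UDP-glycosyltransferases had -0.01 and 0 past 2-fold. The 9 cytochrome P450 genes had 0.05 and ran from CYP71B29 at -0.55 to CYP71B22 at 0.84. The 6 WRKY factors, regulators of defence and ageing, lay between -0.24 and 0.29. The 6 genes of reactive oxygen metabolism had a median of 0.08, with Prx37 below and NDB2, an external mitochondrial NADH dehydrogenase, at 0.68. The 6 genes of cell wall loosening had -0.13, with EXPA4 as the 1 at least 2-fold higher and EXLB1 and EXLA1, expansin-like proteins, at -0.44 and -0.42. Of 6 calcium and touch genes 2 lay above 0, with a median of -0.21, and CML41 was the lowest at -0.59.

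Several stress genes that EST seedlings expressed at higher levels had the other sign or a small difference in EST leaves. STZ, a zinc finger repressor of the salt and cold response, had a log2 signal of 9.51 in EST leaves and 10.01 in mock leaves. This difference of -0.50 stood against 2.44 and 1.23 in seedlings, where mock at 4 h minus mock at 3 h was 1.34. PUB23, a ubiquitin ligase that dampens defence, differed by -0.86 in leaves and by 1.04 and 1.11 in seedlings. PYE, a bHLH regulator of iron deficiency, differed by -0.53 in leaves and by 1.28 and 0.95 in seedlings. The heat shock gene Hsp70-2 and AT5G48570 went the opposite way, with 0.43 and 0.45 in leaves and values of -0.27 to -1.21 in seedlings. The ATP sulfurylase genes APS3 and APS4, at the start of sulfate assimilation, differed by -0.49 and -0.47 in leaves.

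Starch and sucrose genes went both ways. DPE1, the plastid enzyme that recycles maltotriose in starch breakdown, had a log2 signal of 7.75 in EST leaves and 6.97 in mock leaves, and the sugar exporter SWEET1 differed by 0.57. A gene annotated as PWD (AT4G24450), a glucan water dikinase, differed by -0.71 and APL3, a subunit of the enzyme that makes ADP-glucose, by -0.35. The 7 counted genes had a median of 0.02, with 0 at least 2-fold higher and cwINV6 at least 2-fold lower. The 5 genes of sugar starvation and the dark response had a median of -0.18 and ran from IVD at -0.38 to AKINBETA1 at 0.25.

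The seedling arrays offer the only independent look at the 111 leaf genes. EST seedlings of 3 h exceeded mock seedlings by 2-fold or more for 2.06% of the 5297 genes and lay below by as much for 0.396%, and at 4 h these shares were 1.04% and 0.0566%. Of the 57 higher leaf genes, 5 reached the same threshold in seedlings at 3 h and 3 at 4 h, which is 8.77% and 5.26%, and 1 was at least 2-fold lower at 3 h. Their median differences were -0.06 and 0.07. Of the 54 genes lower in EST leaves, 0 were at least 2-fold lower at either time, while 4 were at least 2-fold higher at 3 h and 2 at 4 h, which is 7.41% and 3.7%. Their medians were -0.001 and 0. Within 1.5-fold in both seedling pairs were 44 of the 57 and 38 of the 54, which is 77.2% and 70.4%, against 90.9% of all genes.

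The genes past 2-fold upward at 3 h and again at 4 h in seedlings numbered 33, or 0.623% of the 5297. They shared 3 with the 57 leaf genes, which is 5.26% of the leaf genes and 9.09% of the seedling genes, and 2 with the 54 lower leaf genes. The 3 were AT4G39670, of the glycolipid transfer protein family, AT1G74010, of the calcium-dependent phosphotriesterase superfamily, and AT2G47550, of the invertase and pectin methylesterase inhibitor superfamily. AT4G39670 had 9.51 in EST leaves and 8.17 in mock leaves, at 5.28 spreads, and its seedling differences were 3.12 and 2.60. AT1G74010 differed by 1.43 in leaves, 2.38 at 3 h and 2.29 at 4 h. AT2G47550 differed by 1.11 in leaves, 2.38 at 3 h and 1.56 at 4 h. In each of the 3 the leaf difference was the smallest of the pairs. AT2G16900, a PEARLI 4 phospholipase-like gene, and AT3G04000, of the NAD(P)-binding Rossmann-fold superfamily, differed by 1.08 and 1.04 in leaves and reached 2-fold in seedlings at 3 h only, with 1.38 and 1.12.

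The 2 genes with opposite signs were AT1G10585, a bHLH factor, and AT5G64100, a peroxidase. AT1G10585 had a log2 signal of 7.11 in EST leaves and 8.65 in mock leaves, and differences of 1.80 and 1.25 in seedlings. AT5G64100 had 7.13 in EST leaves and 8.26 in mock leaves, and differences of 1.33 and 1.02 in seedlings. Over the 33 genes the median leaf difference was 0.06, 18 lay above 0 and 19 stayed within 1.5-fold.

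**Figure D4:**
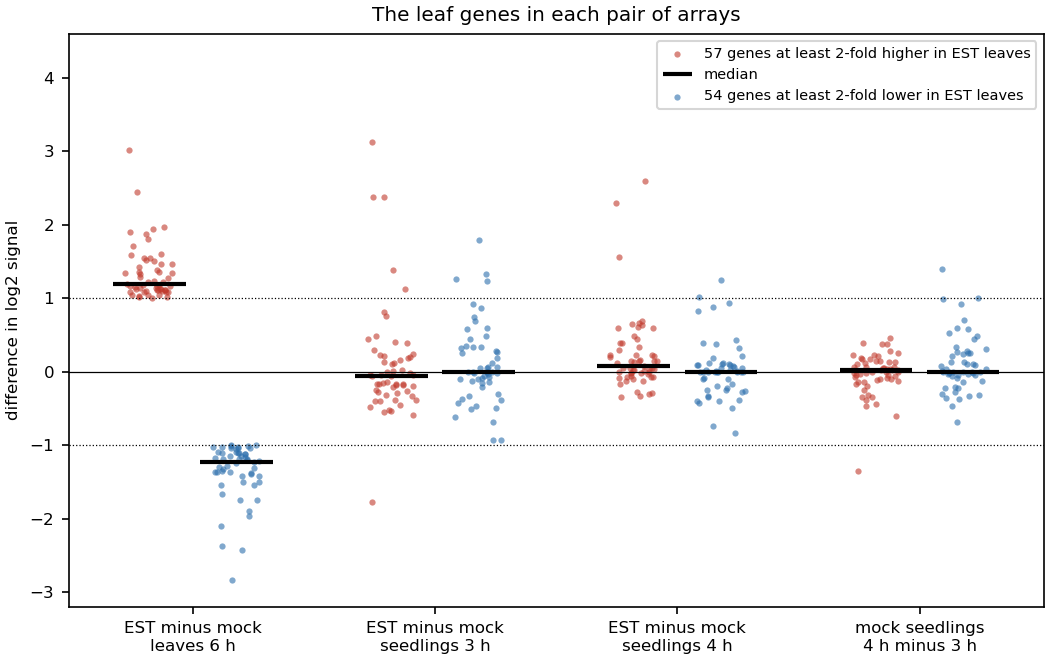
Difference in log2 signal of the 57 genes at least 2-fold higher (red) and the 54 at least 2-fold lower (blue) in EST leaves, for EST minus mock in leaves and in both seedling pairs, and for mock seedlings of 4 h minus 3 h. Bars are medians and dotted lines mark 2-fold; the leaf column is apart by choice of the genes, and the medians of the other columns lie between -0.06 and 0.07.

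The leaf difference was also set against the mean seedling difference in limma, with the 3 pairs of arrays as blocks. It called 0 of 5297 genes at an adjusted p under 0.05 (0%), with a lowest adjusted p of 0.229 by limma with Benjamini-Hochberg adjustment, and 877 genes at an unadjusted p under 0.05. This test has 1 residual degree of freedom, and since the leaves give only 1 difference, its error comes from the 2 seedling pairs alone, whose spread is narrower than that of the leaves.

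Higher and lower genes differed in how strongly leaves express them relative to seedlings, a measure set by levels and not by the EST difference. The mean of both leaf arrays minus the mean of the 4 seedling arrays had a median of -0.59 for the 57 higher genes, 1.72 for the 54 lower genes and 0.22 for all 5297. At least 2-fold brighter in leaves than in seedlings were 12 of the 57 and 36 of the 54, against 1376 of all 5297. At least 2-fold dimmer were 20 and 7, against 788 of all 5297. Among genes with a mean leaf signal of at least 7, the medians were -0.52 for 30 higher genes, 1.62 for 25 lower genes and 0.33 for all 3933. At a mean of at least 8 they were -0.13 for 16 higher genes, 1.22 for 5 lower genes and 0.43 for all 2612. There the higher genes were near all genes, with 37.5% at least 2-fold brighter in leaves against 32.5%. At least 2-fold dimmer were 12.5% of them against 11.8%. UPB1 was 5.31 brighter in leaves on the log2 scale, AT4G20460 4.84 and cwINV6 3.96. On the higher side PDF1.2b, AT4G29020 and AT4G34950 were dimmer in leaves by more than 3, at -5.54, -3.62 and -3.59. There were exceptions on both sides, such as AT1G56060, higher in EST leaves and 4.46 brighter in leaves, and BCAT4, lower in EST leaves and 3.16 dimmer there, at -3.16. Leaves and seedlings also differ in age, growth medium, day length and time of EST, which cannot be told apart from the tissue.

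**Figure D5:**
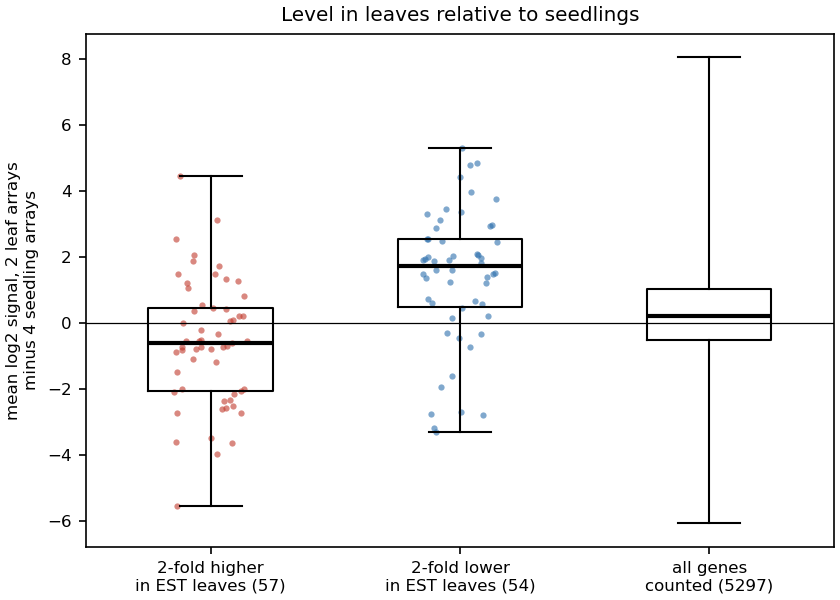
Mean log2 signal of the 2 leaf arrays minus that of the 4 seedling arrays, for the 57 genes at least 2-fold higher in EST leaves, the 54 at least 2-fold lower and all 5297 counted. Boxes span the quartiles with the median as a line, and whiskers reach the lowest and highest gene; the medians are -0.59, 1.72 and 0.22.

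Some further groups were all chosen after the values had been seen, so their counts are descriptions, to be read against 52% of all genes above 0. Of 9 counted subunits of the nuclear RNA polymerases, 8 lay below 0, with a median of -0.28, and the lowest were NRPB6B at -0.79 and NRPA2, the second largest subunit of RNA polymerase I, at -0.72. Of 9 counted ATG8 genes, which encode the ubiquitin-like proteins of autophagosomes, 8 lay below 0, with a median of -0.23, and 0 reached 1.5-fold. The histone H2B genes HTB1 and HTB2 differed by 0.67 and 0.91, and HTB4 and HTB11 by -0.03 and 0.01. RALF-like peptides, which are secreted growth signals, were divided, with RALFL34 at 0.87 and RALFL24 at 0.70 and RALFL32 at -0.75. None of these groups had a gene past 2-fold.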

How the data were processed

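Total RNA of 6 samples of GRF9-IOE plants was hybridised to ATH1 arrays, 1 array for each group, so no error between replicates can be given, and the number of arrays limits the precision. The authors normalized all arrays with GCRMA and deposited 1 log2 signal for each probe set and array; the version of GCRMA is not given in the sources used here. They were used as deposited. The platform annotation paired 13513 of 22746 probe sets with 1 gene, 503 with several and 8730 with none. Of the 13513, 13436 matched TAIR10.1 by gene identifier and 77 did not. For 144 genes with several probe sets the one of highest mean leaf signal was kept, and 69 plastid genes were left out. Mitochondrial genes numbered 0. Of 5 counted loci in the chromosome 2 region that holds a copy of mitochondrial DNA, 0 passed 2-fold.

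Genes were counted at a difference of at least 1 on the log2 scale, and their spread was the scaled median absolute deviation in 20 bins of mean signal. Limma 3.58.1 (R 4.3.3) fitted all 6 arrays with the 3 pairs as blocks and was tested on simulated data. The other steps used Python 3.11.15 with pandas and matplotlib 3.10.9. Members and gene lists were chosen with earlier results of these data known. The text names the 25 largest differences in each direction, members of lists past 2-fold, up to 4 further members of each list, the 4 genes on either side of each threshold and genes past 2-fold in leaves and both seedling pairs. Others were chosen after their values were seen. No role is given to a gene known by its locus code alone unless the study annotates it. Promoters were not analysed here. Alternatives were other normalizations, filters, thresholds, probe sets and yardsticks.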

Additional observations from a re-analysis of the deposited data

Results flagged for a closer look

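AT1G10585 and AT5G64100 were picked out because their leaf difference, -1.54 and -1.12, is opposite in sign to 2-fold differences in both seedling pairs. Leaf difference minus mean seedling difference was -3.07 for AT1G10585 and -2.30 for AT5G64100. Neither passed the limma test of this difference, but the test called 0 of 5297 genes, so it cannot decide on these 2. Leaf and seedling pairs differ in tissue, age, growth medium and time of EST together.

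Signal past 2-fold in leaves was also present in probe sets outside the comparison. Of 4689 probe sets with a log2 signal of at least 6 that the annotation pairs with no gene, 75 were at least 2-fold higher in EST leaves and 53 at least 2-fold lower. These are 1.6% and 1.13%, near the 1.08% and 1.02% of the genes counted. Of 226 paired with several genes, 3 were higher and 4 lower, which is 1.33% and 1.77%. The highest difference among these was 5.50, and the genes of that probe set were not identified here.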

How the results depend on the processing

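The counts of 57 higher and 54 lower genes depended most on the filter and the threshold. With a signal of at least 5 on 1 array the lower genes numbered 86, and the higher ones, 85, stayed within 1.5 times. With at least 8 on 1 array there were 25 higher and 19 lower, with at least 6 on both arrays 33 and 28, and with no filter 134 and 123. At 1.5-fold there were 297 higher and 302 lower, and at 3-fold 10 and 9. All probe sets other than controls gave 138 higher and 135 lower, counted per probe set. Beyond 3 leaf spreads 37 and 33 were left, which was partly fixed in advance, since in bins of narrow spread any 2-fold difference passes. All 57 and 54 lay beyond 3 spreads of the mock seedling arrays, but this outcome was fixed in advance. The widest mock seedling spread was 0.33, so a 2-fold difference exceeds 3 spreads in every bin. Quantile normalization, centring on the median or on the median of each bin, and the mean of a gene's probe sets gave 55 to 57 higher and 53 to 60 lower, and at least 106 of the 111 genes stayed past 2-fold under each of the 3 normalizations. Values of named genes were compared only under the 3 normalizations, which moved no gene by more than 0.065 (576 values of 192 genes). That is below the narrowest bin spread of 0.24, so the comparison says little. No median of a list of at least 5 genes moved by as much as 0.32, the spread over all genes (84 values of 21 lists). This is a wide margin for medians near 0: that of calcium and touch went from -0.21 to 0 with no filter. With no replicate block limma again called 0 genes, as it did with a trend, without the filter and with the filter over all 6 arrays. The leaf difference itself has 1 array for each treatment, so it has no test of its own, with or without a block. The motif search in promoters was not run. Genes with a mean signal near or below 6 had the widest spread. The filter itself contributes to that width, which limits what can be said of these genes.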
